A study of Mus musculus with 6 samples.

Results

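Expression of 10 genes of arginine, creatine and polyamine metabolism was described in lung group 2 innate lymphoid cells (ILC2s) with and without SIRPα, an inhibitory receptor whose ligand is CD47. The genes were Arg1, Gatm, Odc1, Srm, Sms, Amd1, Oaz1, Oaz2, Azin1 and Sat1, out of 17831 in the deposited table. They were chosen by name for their roles, with results of this same SIRPα KO against WT contrast already known. Their values are therefore a description, and the adjusted p values, which come from the fit across all genes, are given as such and support nothing further.

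Bulk RNAseq had been performed on 3 WT and 3 SIRPα KO libraries, the WT mice labelled CB57BL/6 and the others SIRPalphatm1Ynliu/J, a line in which the deletion is not limited to ILC2s. The mice were age and sex matched and 6 to 8 weeks old, and both groups received 0.5 µg of rmIL-33 by the nose on each of 3 days, so no library came from unchallenged lungs. On day 4 the ILC2s were sorted at a stated purity over 95% and then kept with rmIL-2 and rmIL-7, for 18 h by the results text and 24 h by a legend. The question put to these libraries was how the loss of SIRPα changes ILC2 metabolism.

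Arginine is split by arginase into urea and ornithine, and it also gives its amidino group to glycine in the first step of creatine synthesis, which releases ornithine too. Ornithine decarboxylase turns ornithine into putrescine, and spermidine and spermine are built on it with aminopropyl groups from decarboxylated S-adenosylmethionine. Polyamines limit their own production, because antizymes bind ornithine decarboxylase and bring it to the proteasome, while antizyme inhibitors hold the antizymes back. Lung ILC2s are known for high arginase expression.

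Part of this control is written in the transcripts themselves. Antizyme mRNAs carry a stop codon early in the reading frame, and the full protein is made only where the ribosome slips forward by a single base, which polyamines favour. The sites of both antizymes lie in coding sequence (GENCODE M21, mm10), Oaz1 at chr10:80828281-80828310 (+) and Oaz2 at chr9:65686258-65686287 (+), and are shown because antizyme counts do not tell how much antizyme is translated. Capitals mark the stop codon at the slip.
Oaz1: ctcggtggtgctccTGAtgtccctcaccca
Oaz2: ctctgtggtgctccTGAtgcccctcaccca

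The Amd1 mRNA has a short reading frame in its 5′ UTR that holds ribosomes when polyamines are high. In mm10 it lies at chr10:40302155-40302175 (-), and its near-identical copy Amd2 has the same 21 bases at chr10:35711860-35711880 (-). Capitals mark the start and the stop codon.
Amd1: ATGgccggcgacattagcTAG

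The bases before the start are shown for Amd1 and Gatm, the members with the smallest adjusted p and the largest fold. They come from RefSeq on GRCm38.p6, at chr10:40302189-40302438 (-) for Amd1 and chr2:122611304-122611527 (-) for Gatm, and both stretches lie outside the genes' GENCODE exons. Capitals mark the motifs found on either strand.
Amd1: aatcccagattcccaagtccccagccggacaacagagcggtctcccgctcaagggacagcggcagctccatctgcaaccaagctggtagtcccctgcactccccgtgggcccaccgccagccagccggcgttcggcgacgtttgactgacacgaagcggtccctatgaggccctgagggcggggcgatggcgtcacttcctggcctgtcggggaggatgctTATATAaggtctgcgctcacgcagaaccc
Gatm: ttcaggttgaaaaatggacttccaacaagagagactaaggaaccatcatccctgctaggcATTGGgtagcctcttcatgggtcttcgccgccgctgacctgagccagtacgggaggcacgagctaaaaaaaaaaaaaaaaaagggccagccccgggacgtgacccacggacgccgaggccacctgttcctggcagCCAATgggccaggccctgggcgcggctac

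A set of 4 motifs was searched on both strands of the 250 bases before each start, in 32851 windows. TATAAA was in 12.4% of all windows and in 0 of the 7 members that the table holds. TATATA, which can share bases with TATAAA, was in 5.25% of windows and in Amd1. CCAAT was in 33.8% of windows and in Gatm, Sms and Oaz1, and CACGTG was in 6.02% of windows and in Sms. Sms has 2 windows and was counted if either held the motif, whereas the shares are per window. A match is a description of letters and not of a bound factor. Arg1, Srm and Azin1 are not in the promoter table used here.

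Library totals ran from 13980499 to 19051507 reads, and n counts libraries throughout. The descriptions give WT replicates 1 and 2 code 37 and SIRPα KO replicates 2 and 3 code 44, the latter of each pair with an added V1. The design text speaks of duplicates, and nothing states that libraries of a code came from separate mice or cultures. If they are repeat libraries of a sample, each group has 2 samples, the SD values are partly technical and the adjusted p values given with n = 3 are too small. Chi-square per degree of freedom was 31.4 between WT replicates 1 and 2 against 83.3 and 68.9 to WT replicate 3, and 11 between SIRPα KO replicates 2 and 3 against 8.5 and 12.6 to SIRPα KO replicate 1. Some markers of other cells differed more between codes than within them. Krt8 had 108, 113 and 0 reads in WT replicates 1, 2 and 3, and 0, 77 and 85 in SIRPα KO. Retnla had 839, 610 and 55 against 2, 417 and 344, and Scgb1a1 had 690, 673 and 525 against 1, 1073 and 981. These were picked after their values were seen, and others did not, such as Adgre1 in WT (74, 15 and 113). Whether libraries of a code share a source was not tested. The labels' 3 replicates per group were kept. Sirpa reads were few, at 149, 96 and 73 in WT against 48, 85 and 28 in SIRPα KO (log2 fold change -1.12, adjusted p = 0.115, edgeR's quasi-likelihood method), so the deleted gene itself did not pass the test. Levels are in CPM, the reads of a gene scaled by TMM to a fixed library total. All 12 ILC2 markers were tested, with 2 higher, 1 lower and a summed level of 13400 to 14800 CPM in WT against 19500 to 20100 in SIRPα KO. The higher ones were Il5, at means of 9190 and 13000 CPM in WT and SIRPα KO, and Il2ra, at 1840 and 3450, which make up most of the difference in the sum, and the lower one was Thy1, at 16.1 and 3.86. Gata3 at 946 and 1010 CPM, Il1rl1 at 544 and 883 and Il7r at 68.1 and 104 did not pass the test. Summed B cell markers were at 224 to 495 CPM in WT against 23.2 to 87.3 in SIRPα KO, and 5 of 7 tested fell. Summed NK cell markers were at 13.9 to 25.3 and 1.73 to 3.73 CPM, with 3 of 5 lower by the test, and T cell markers at 18.6 to 23.5 and 4.77 to 5.56, with 1 of 2 lower. Dendritic cell markers summed to 37.3 to 59.5 CPM in WT against 42.9 to 46.2 in SIRPα KO, neutrophil markers to 0.173 to 11.2 and 0 to 0.472, eosinophil, basophil and mast cell markers to 7.59 to 22 and 1.67 to 28.7, and markers of epithelium, endothelium and stroma to 60.6 to 93.9 and 46.8 to 112, the last list with 1 gene higher and 1 lower. The part of these other cells in the results was not tested, and fewer cells of a type and less RNA per cell cannot be told apart in bulk RNA.

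Of the 10 members, 3 rose in SIRPα KO ILC2s and 1 fell. Gatm, Amd1 and Azin1 were higher, and the antizyme Oaz1 was lower, at an adjusted p under 0.05 (edgeR's quasi-likelihood test, Benjamini-Hochberg over 13623 genes). Over all genes 5.94% were called higher, 5.81% lower and 11.7% either way, and since the contrast was known when the members were chosen, nothing is read from the difference. The groups' libraries did not overlap for 8 of the 10, against 42.8% of all genes, and the overlapping members were Srm and Oaz2. The median log2 fold change was 0.30 over the members and -0.025 over all genes tested, with 6 members and 48.4% of all genes above 0. All 10 members passed the filter on low counts. With the libraries of a code summed, which leaves 2 against 2, edgeR called 0 members, and 4 had an unadjusted p under 0.05.

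**Figure D1:**
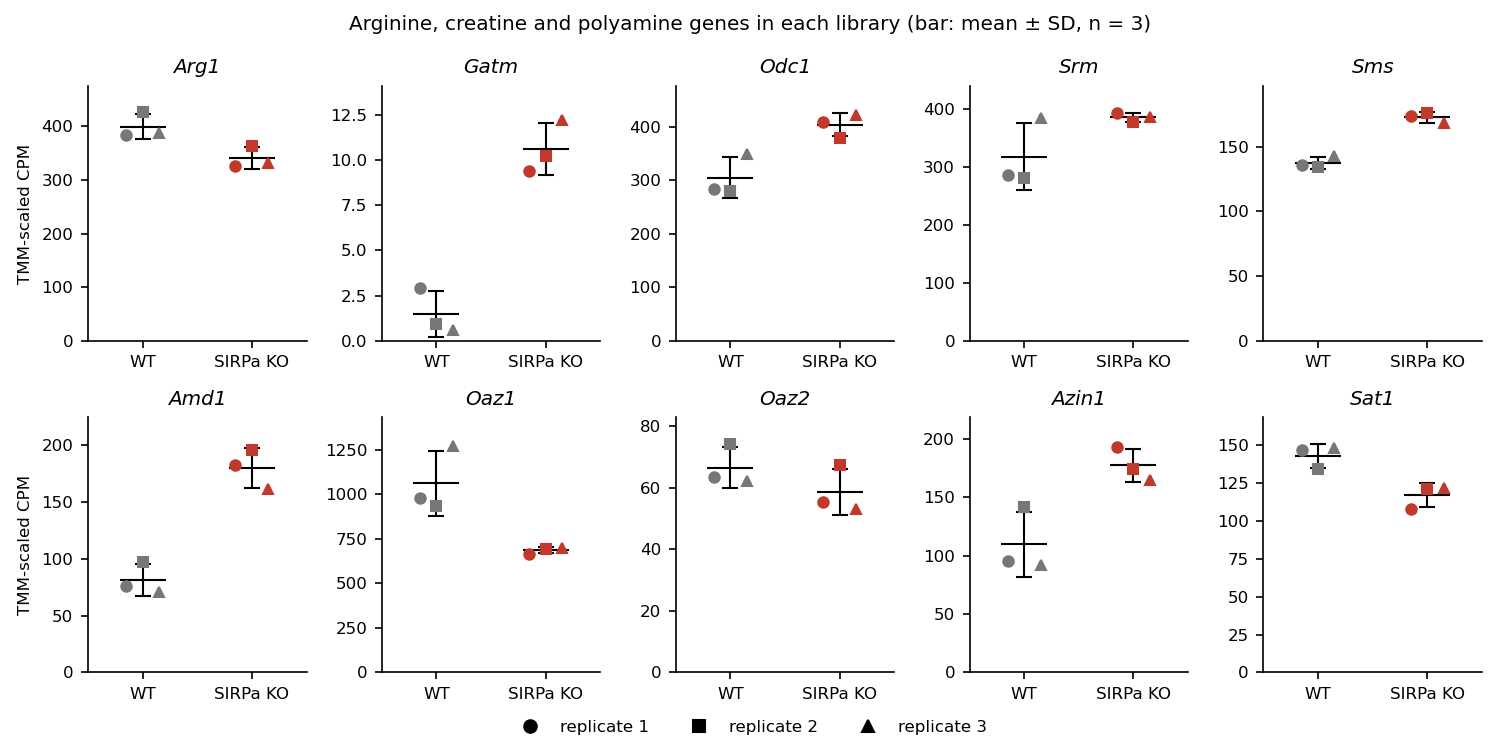
TMM-scaled CPM of each of the 10 genes, 1 panel a gene with its own axis from 0, in the 3 WT (grey) and 3 SIRPα KO (red) libraries. Horizontal bars are means and error bars SD (n = 3), and symbols mark the replicate number. The groups stand apart in 8 panels and overlap for Srm and Oaz2.

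In each panel of the library levels, the distance between the groups can be read against their spread. Over all genes the WT libraries varied more, with 38.1% as edgeR's biological coefficient of variation against 15.2% for the SIRPα KO libraries. That coefficient is relative to the level and an SD in CPM is not, so these are unlike measures. The SD in CPM was larger in WT for Arg1, Odc1, Srm, Sms, Oaz1 and Azin1. It was larger in SIRPα KO for Gatm (1.46 against 1.26), Amd1 (17.8 against 13.9), Oaz2 (7.61 against 6.58) and Sat1 (8.06 against 7.66). The means of Gatm and Amd1 were higher in SIRPα KO too, and relative to the mean their SD was larger in WT. Oaz2 and Sat1 had lower means in SIRPα KO, so their SD was larger there relative to the mean as well.

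Of the users of arginine, Gatm rose and Arg1 did not pass the test. Arg1, the cytosolic arginase, lies on chr10:24915221-24927484 (-). CPM were 385, 427 and 387 for Arg1 in WT replicates 1, 2 and 3 against 327, 364 and 332 in SIRPα KO. The groups stood apart by a small step, with SIRPα KO lower. The means were 400 ± 23.9 CPM in WT against 341 ± 20.1 CPM in SIRPα KO (SD, n = 3), and the log2 fold change of -0.23 (standard error (SE) 0.10) did not pass the test (adjusted p = 0.163, edgeR). Arg1 had 5120 to 6942 reads in a library, and what kept it from passing was not tested.

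Macrophages also express Arg1, so their markers were read beside it, although the sort had left out cells positive for CD11b, CD11c or Gr1. Of 16 macrophage and monocyte markers, 12 were tested and 1, Ly6c2, fell, and their summed level was 677 to 1060 CPM in WT against 626 to 919 in SIRPα KO. The defining gene Adgre1 had 74, 15 and 113 reads in WT and 25, 158 and 96 in SIRPα KO, and Csf1r had 113, 61 and 49 against 123, 185 and 102. Mrc1 had 0, 3 and 4 reads in WT and 15, 27 and 15 in SIRPα KO, and Retnla had 839, 610 and 55 against 2, 417 and 344. Fcgr1, C1qa, C1qb and C1qc were at 0 in every WT library and at 0 to 12 reads in SIRPα KO. Chil3 had the most reads of the defining genes, with means of 529 CPM in WT against 560 CPM in SIRPα KO. Lyz2 had 321 to 1380 reads in a library and Chil3 5223 to 11978. The part of macrophage RNA in the Arg1 reads was not tested.

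Gatm encodes the amidinotransferase that begins creatine synthesis from arginine and glycine, and lies on chr2:122594467-122611303 (-). It had 2.93, 0.924 and 0.596 CPM in the WT replicates, which are 51, 13 and 9 reads, and 9.4, 10.2 and 12.2 CPM in the SIRPα KO replicates, which are 147, 194 and 197 reads. The groups were far apart, although WT replicate 1 was above the other WT libraries. Gatm rose from 1.48 ± 1.26 to 10.6 ± 1.46 CPM (SD, n = 3), a log2 fold change of 2.81 (SE 0.56, adjusted p = 0.0247, edgeR), from few reads in WT. Without WT replicate 1 the log2 fold change was 3.80. Its adjusted p was 0.113, 0.117 and 0.104 without SIRPα KO replicate 1, 2 or 3 in turn.

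The enzymes of polyamine synthesis all had higher means in SIRPα KO, and Amd1 passed the test. Amd1 encodes S-adenosylmethionine decarboxylase, which supplies the aminopropyl donor, and lies on chr10:40287458-40302186 (-). Its levels were 75.9, 97.0 and 70.6 CPM in WT against 182, 196 and 161 CPM in SIRPα KO. The lowest SIRPα KO library was well above the highest WT library. The mean rose 2.22-fold, from 81.2 ± 13.9 to 180 ± 17.8 CPM (SD, n = 3), and the log2 fold change was 1.15 (SE 0.16, adjusted p = 0.0115, edgeR). The adjusted p was 0.0898, 0.0928 and 0.0608 without SIRPα KO replicate 1, 2 or 3.

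Amd1 has near-identical copies, so reads could be shared among them. Its transcript matched that of Amd2 at 99.6% identity over 3202 bases. In a library, the copies in the table held 3.23% to 5.91% as many reads as Amd1. Amd2 had 69, 39 and 53 reads in WT and 113, 134 and 115 in SIRPα KO, with means of 3.42 ± 0.603 and 7.13 ± 0.0955 CPM (SD, n = 3), and its log2 fold change of 1.06 did not pass the test (adjusted p = 0.0510, edgeR; 0.0363 without WT replicate 3). Adding the copies' reads to each member changed no member's call.

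Odc1, Srm and Sms did not pass the test. Odc1, the ornithine decarboxylase on chr12:17544794-17551505 (+), had 284, 281 and 349 CPM in WT against 409, 380 and 422 CPM in SIRPα KO. Srm, the spermidine synthase on chr4:148591503-148594993 (+), had 287, 282 and 385 CPM in WT against 393, 378 and 387 CPM in SIRPα KO. Sms, the spermine synthase on chrX:157443855-157492287 (-), had 136, 134 and 143 CPM in WT against 174, 176 and 168 CPM in SIRPα KO. The groups stood apart for Odc1 and Sms, while WT replicate 3 lay within the SIRPα KO range for Srm.

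The means were 305 ± 38.5 and 404 ± 21.8 CPM for Odc1, 318 ± 57.9 and 386 ± 7.41 CPM for Srm, and 138 ± 4.63 and 172 ± 4.02 CPM for Sms (SD, n = 3). The log2 fold change was 0.41 for Odc1 (adjusted p = 0.0639), 0.28 for Srm (0.200) and 0.32 for Sms (0.0732) by edgeR's quasi-likelihood test. The outcome for all 3 changed without WT replicate 3, which was the highest WT library for each. Without it the log2 fold changes were 0.52, 0.45 and 0.36, with adjusted p values of 0.00543, 0.0051 and 0.0169 from edgeR. DESeq2 on all libraries called Odc1 (0.43, adjusted p = 0.00956) and Sms (0.35, 0.00306) but not Srm (0.30, 0.138). Odc1 and Sms have 5 and 3 near-identical copies, which held 4.27% to 6.29% and 2.07% to 4.05% as many reads as the gene.

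Of the antizymes, Oaz1 fell and Oaz2 did not pass the test. Oaz1, the main antizyme, lies on chr10:80826656-80829290 (+) and had 980, 935 and 1270 CPM in WT against 665, 694 and 698 CPM in SIRPα KO. All SIRPα KO libraries were below all WT libraries and close together. Oaz1 fell by 0.63 on the log2 scale (SE 0.13, adjusted p = 0.0257, edgeR), from 1060 ± 180 to 686 ± 18.1 CPM (SD, n = 3). Its adjusted p was 0.132, 0.127 and 0.109 without SIRPα KO replicate 1, 2 or 3, and 0.521 or 0.0416 after the length and GC corrections described further on, by the principal or the longest transcript. A pseudogene copy, Oaz1-ps, matches it at 99.7% and held 1.89% to 3.28% as many reads as Oaz1.

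Oaz2, a second antizyme on chr9:65668001-65690300 (+), had 63.5, 74.2 and 62.2 CPM in WT against 55.4, 67.3 and 53.2 CPM in SIRPα KO. These groups overlapped, and the log2 fold change of -0.18 did not pass the test (adjusted p = 0.432, edgeR). The testis antizyme Oaz3 had 1, 0 and 20 reads in WT and 0, 0 and 7 in SIRPα KO and was too low to test.

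Azin1, the antizyme inhibitor that resembles ornithine decarboxylase without its activity, lies on chr15:38487427-38519266 (-). It had 95.5, 142 and 92.1 CPM in WT against 193, 174 and 165 CPM in SIRPα KO. The groups stood apart, with WT replicate 2 nearest to the SIRPα KO libraries. Azin1 rose 1.61-fold, from 110 ± 27.8 to 177 ± 14.4 CPM (SD, n = 3), with a log2 fold change of 0.69 (SE 0.18, adjusted p = 0.0481, edgeR). This call was close to the threshold and was lost in 5 of 6 fits that left out a library. The adjusted p was 0.0987 and 0.0559 without WT replicate 1 or 3, 0.186, 0.162 and 0.13 without SIRPα KO replicate 1, 2 or 3, and 0.0146 without WT replicate 2. It was 0.0529 with a block for the replicate number and 0.497 after the length and GC correction. An antisense gene, Gm49077, shares 358 bases with Azin1 exons, and no source used here says whether reads were counted by strand. The relative Azin2 had 31, 14 and 61 reads in WT and 22, 21 and 13 in SIRPα KO (log2 fold change -1.04, adjusted p = 0.283, edgeR).

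Sat1 encodes the acetyltransferase that marks spermidine and spermine for breakdown and export, and lies on chrX:155213132-155216449 (-). It had 147, 134 and 148 CPM in WT against 108, 121 and 122 CPM in SIRPα KO. All SIRPα KO libraries lay below the WT libraries. The means were 143 ± 7.66 and 117 ± 8.06 CPM (SD, n = 3), and the log2 fold change of -0.29 did not pass the test (adjusted p = 0.131, edgeR).

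**Figure D2:**
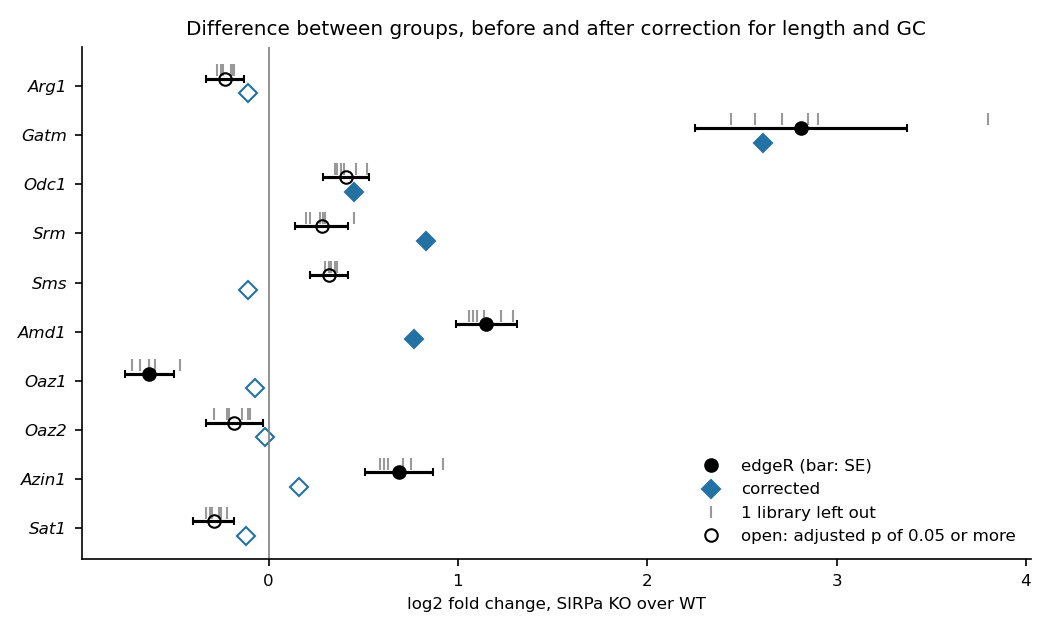
log2 fold change of each of the 10 genes, SIRPα KO over WT, as tested (edgeR with TMM, black, SE bars) and after a length and GC correction (blue diamonds). Filled symbols have an adjusted p under 0.05, and grey ticks are the fits with 1 library left out. Gatm and Amd1 keep an adjusted p under 0.05 in both, Azin1 and Oaz1 come near 0 with the correction, and Srm and Odc1 pass with it.

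Fold changes across all genes followed transcript length. Among genes whose average log2 CPM was 3 or more, sorted by transcript length into deciles, the median log2 fold change ran from -0.57 in the shortest decile to 0.46 in the longest. Oaz1, with a transcript of 1044 bases, stood at percentile 42.2 of its decile, and Azin1, with 4871 bases, at percentile 73.7 of a decile whose median was 0.40. Sat1, Oaz2, Sms and Arg1 stood at percentiles 50.1, 47.1, 56.8 and 57.4 of theirs, near the middle. Gatm stood at percentile 100, Amd1 at 98.6, Srm at 94.3 and Odc1 at 84.6.

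**Figure D3:**
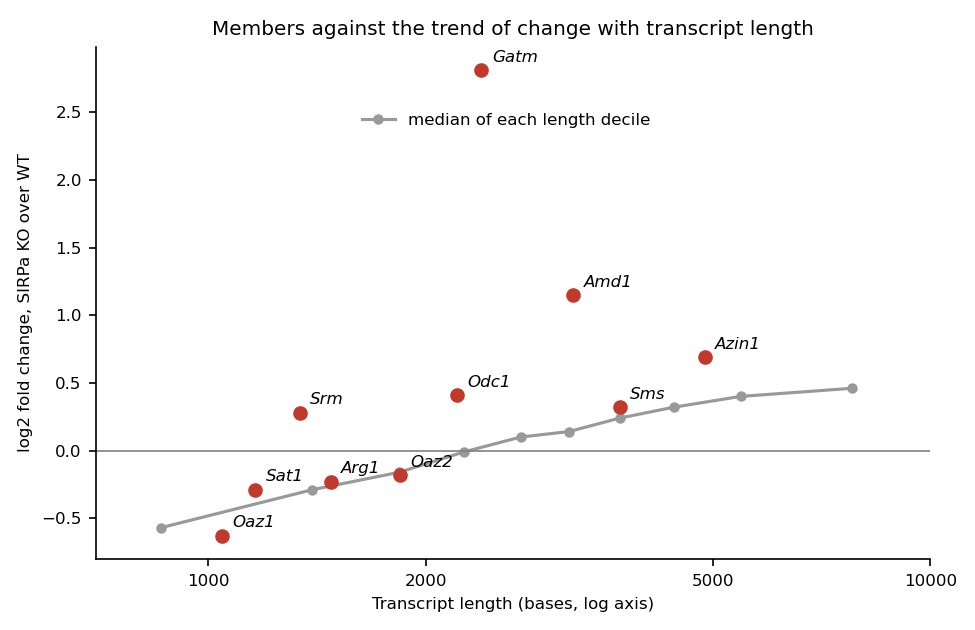
log2 fold change (SIRPα KO over WT) of the 10 genes (red) against transcript length in bases on a log axis. Grey points are the medians of length deciles of the genes whose average log2 CPM was 3 or more, from -0.57 to 0.46, drawn at the median length of each decile. Gatm, Amd1, Srm, Odc1 and Azin1 lie above the grey line, and Oaz1, Sat1, Arg1, Oaz2 and Sms lie close to it.

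A length and GC correction, fitted to transcript length and GC content of genes outside the member and pathway lists, changed which members were called. With it, 4 members were called, all higher: Gatm (log2 fold change 2.61, adjusted p = 0.0289), Amd1 (0.77, 0.0151), Srm (0.83, 0.00222) and Odc1 (0.45, 0.0412), each by edgeR. Oaz1 (-0.07, 0.521) and Azin1 (0.16, 0.497) were no longer called, and Sms turned to -0.11 (0.691). Arg1 (-0.11), Oaz2 (-0.02) and Sat1 (-0.12) stayed below 0 with no call. Over all genes this fit called 8.48%, with 4.04% higher and 4.44% lower. With length taken from the longest annotated transcript instead, a choice made after seeing the data, Oaz1 was called lower (-0.47, adjusted p = 0.0416, edgeR), beside the same 4 genes, and Azin1 was not called (0.24, 0.327). The calls of Gatm and Amd1 were thus made in all 3 fits, and that of Oaz1 depended on which transcript gave the length. Whether length or GC content sets the values of any single gene was not tested.

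Per kilobase of transcript, which allows levels to be compared between genes, the 10 members spread over a wide range. In WT, Oaz1 was highest at a mean of 1010 CPM per kb, followed by Arg1 at 271 and Srm at 238, whose libraries overlapped. Odc1 at 138 and Sat1 at 123 overlapped too, as did Sms at 37.0 and Oaz2 at 36.1, and Amd1 at 25.3 and Azin1 at 22.5. Gatm was lowest at 0.622 CPM per kb. In SIRPα KO the order began with Oaz1 at 657, Srm at 289, Arg1 at 231 and Odc1 at 183 CPM per kb, so that Srm and Arg1 changed places. Amd1 at 56.0 stood above Sms at 46.4 and Azin1 at 36.4, and Azin1 and Oaz2 at 31.8 overlapped. Gatm at 4.43 CPM per kb stayed lowest. Among the 13486 tested genes with a known length, the level of Oaz1 per kb was at percentile 99.6, Srm at 97.7, Arg1 at 97.5 and Gatm at 28.3.

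Ratios of members within a library need no scaling between libraries. The ratio of Odc1 to Oaz1 per kb was 0.137, 0.142 and 0.130 in WT and 0.291, 0.259 and 0.286 in SIRPα KO. The ratio of these mRNA reads was higher in every SIRPα KO library, with means of 0.136 ± 0.00583 and 0.278 ± 0.0174 (SD, n = 3). The ratio of Azin1 to Oaz1 was 0.0209, 0.0325 and 0.0156 in WT and 0.0623, 0.0536 and 0.0507 in SIRPα KO, also without overlap. The ratio of Amd1 to Sat1, synthesis against breakdown, was 0.188, 0.263 and 0.174 in WT and 0.612, 0.587 and 0.476 in SIRPα KO. Those of Odc1 to Sat1 were 1.12 ± 0.113 and 1.82 ± 0.173 and stood apart as well. The ratio of Srm to Sms overlapped between the groups, at 6.4 ± 0.941 in WT and 6.22 ± 0.215 in SIRPα KO, and so did that of Azin1 to Odc1, at 0.167 ± 0.0562 and 0.2 ± 0.0196.

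**Figure D4:**
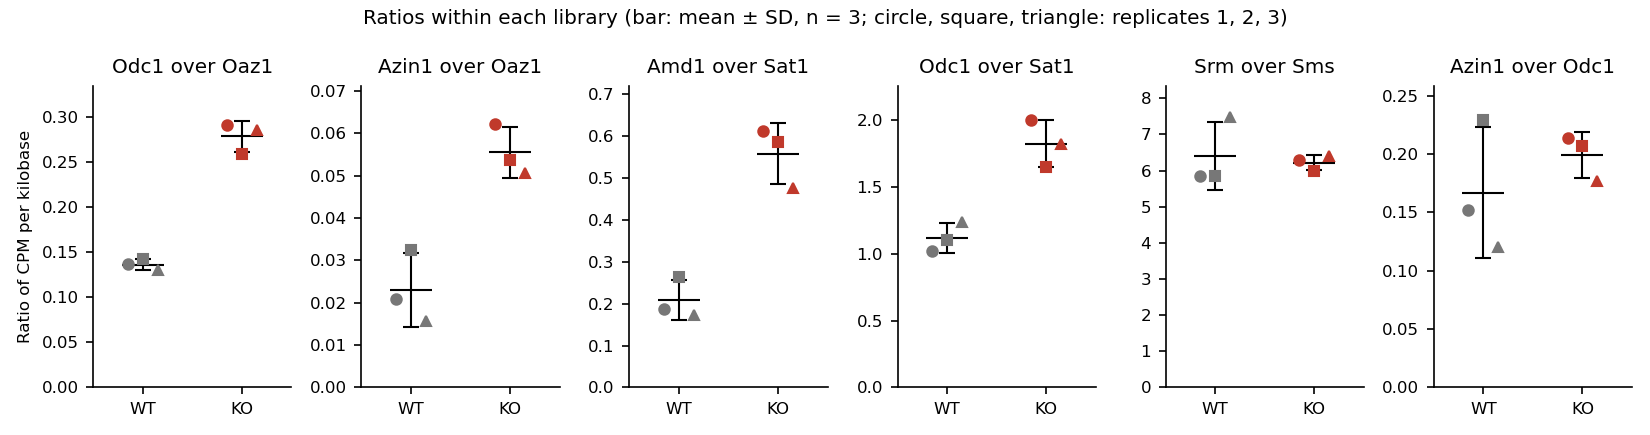
Ratio of CPM per kilobase of 6 pairs of genes within each library, 1 panel a pair with its own axis from 0, for WT (grey) and SIRPα KO (red). Horizontal bars are means and error bars SD (n = 3). Odc1 over Oaz1, Azin1 over Oaz1, Amd1 over Sat1 and Odc1 over Sat1 stand apart, and Srm over Sms and Azin1 over Odc1 overlap.

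The ratios cancel depth but not the trend with length. The difference of log2 fold changes between Odc1 and Oaz1 was 1.03 as tested and 0.51 with the correction. It was 1.32 and 0.23 for Azin1 and Oaz1, 1.43 and 0.89 for Amd1 and Sat1, and 0.69 and 0.57 for Odc1 and Sat1. For Srm and Sms it was -0.04 as tested and 0.94 with the correction.

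Of 53 other genes of these pathways, listed by textbook role, 44 were in the table and 36 were tested. Slc7a2 and Mtap rose and Ckb and Smox fell, which is 4 of 36 against the 11.7% of all genes called. Their median log2 fold change was 0.02, with 20 above 0 and 16 below, and 14 of the 36 had no overlap between groups, against 42.8% of all genes. By group, the called genes were 1 of 7 in arginine transport, synthesis and use, 0 of 8 in ornithine and proline, 1 of 3 in creatine, 1 of 9 in S-adenosylmethionine and methionine salvage, 1 of 4 in polyamine breakdown and transport, 0 of 1 in antizyme control and 0 of 4 in hypusine formation, which modifies a translation factor with spermidine.

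**Figure D5:**
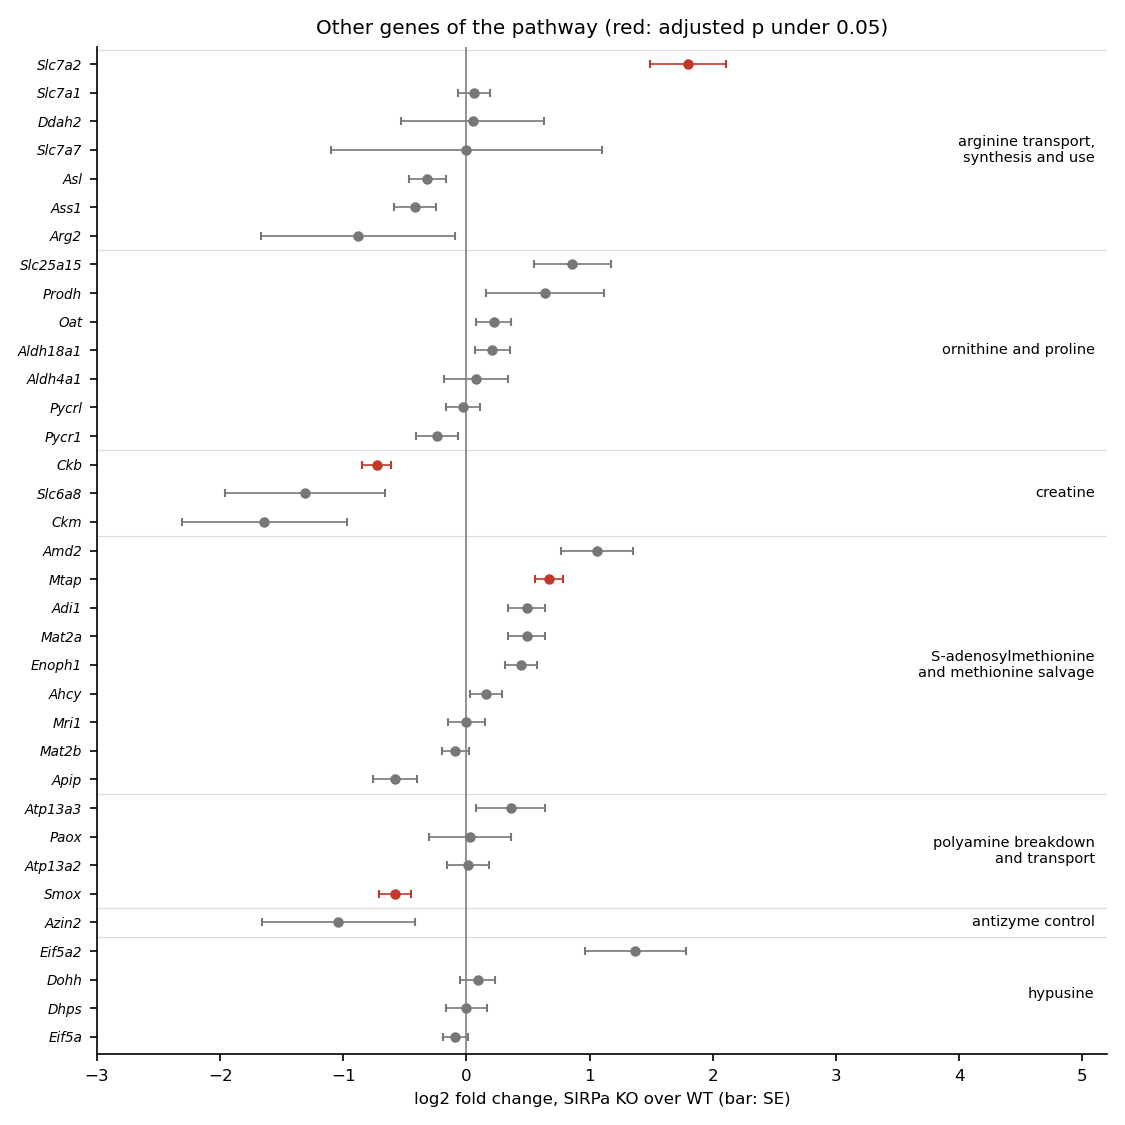
log2 fold change (SIRPα KO over WT) of other tested genes of the pathways, by group and with 1 tested gene not drawn, with SE bars and red for an adjusted p under 0.05 (edgeR). The red points are Slc7a2 and Mtap above 0 and Ckb and Smox below 0.

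In the plot of the other pathway genes, each called gene came from a different group. Slc7a2, an inducible transporter of arginine, had 4.08, 2.63 and 4.50 CPM in WT against 10.8, 16.8 and 11.6 CPM in SIRPα KO. It rose by a log2 fold change of 1.80 (SE 0.31, adjusted p = 0.0178, edgeR), with no overlap. The more abundant transporter Slc7a1 was at 102 ± 13.7 CPM in WT against 106 ± 0.745 CPM in SIRPα KO (SD, n = 3), with overlap and a log2 fold change of 0.06 (adjusted p = 0.787, edgeR), which was -0.045 with upper quartile scaling. The mitochondrial arginase Arg2 had 4, 18 and 18 reads in WT and 7, 5 and 12 in SIRPα KO, so nearly all arginase reads were those of Arg1.

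On the creatine side, the gene that acts after Gatm had few reads. Gamt, the methyltransferase that completes creatine, had 11, 7 and 18 reads in WT and 3, 2 and 2 in SIRPα KO, too few for the test. Ckb, the brain-type creatine kinase, had 118, 113 and 134 CPM in WT against 70.7, 71.3 and 77.8 CPM in SIRPα KO. It fell by 0.73 on the log2 scale (SE 0.12, adjusted p = 0.0170, edgeR), with no overlap.

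Mtap, which salvages the methylthioadenosine left when spermidine and spermine are made, had 106, 114 and 126 CPM in WT against 182, 178 and 191 CPM in SIRPα KO. It rose by a log2 fold change of 0.67 (SE 0.11, adjusted p = 0.0166, edgeR). Mat2a, which makes S-adenosylmethionine, had 511, 595 and 399 CPM in WT against 684, 714 and 713 CPM in SIRPα KO. These groups stood apart, but its log2 fold change of 0.49 did not pass the test (adjusted p = 0.0662, edgeR; 0.0261 and 0.0228 without WT replicate 2 or 3). The median log2 fold change of the 9 tested genes of this group was 0.44, and Mtap alone was called.

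Smox, the oxidase that returns spermine to spermidine, had 170, 176 and 222 CPM in WT against 133, 121 and 128 CPM in SIRPα KO. It fell by 0.58 on the log2 scale (SE 0.13, adjusted p = 0.0351, edgeR), or 0.0572 with the replicate block. Aldh18a1, which makes the precursor of proline and ornithine from glutamate, was at 177 ± 27.6 and 205 ± 12.9 CPM (SD, n = 3; adjusted p = 0.321, edgeR). Eif5a, the translation factor that carries hypusine, was at 2310 ± 278 and 2160 ± 21.8 CPM (SD, n = 3; adjusted p = 0.545, edgeR).

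The 4 calls among these genes also changed with the fit. Without SIRPα KO replicate 1, 2 or 3 the adjusted p was 0.0971, 0.110 and 0.0822 for Slc7a2, 0.115, 0.116 and 0.0868 for Ckb, 0.107, 0.101 and 0.0941 for Mtap, and 0.141, 0.166 and 0.134 for Smox (edgeR). With the length and GC correction none was called, and the log2 fold changes were 1.15 for Slc7a2 (adjusted p = 0.0978), -0.23 for Ckb (0.165), 0.41 for Mtap (0.108) and -0.31 for Smox (0.155). By the longest transcript, Ckb (-0.48, 0.0385) and Mtap (0.52, 0.038) were called. By the principal transcript, genes called higher included Enoph1 (adjusted p = 0.0353, edgeR), Adi1 (0.045), Dohh (0.02) and Eif5a (0.0332, log2 fold change 0.26). The direction of Eif5a was below 0 without the correction.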

How the data were processed

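The authors processed reads in Partek, aligned them with STAR to mm10 (GENCODE M21) and deposited estimated counts per gene, not scaled for library size. The versions differ between sources (the submitters' processing notes name Partek 10.0 and STAR 2.7.8). How reads on repeated or overlapping genes were counted is not given in the sources used here. Whole numbers made up 57.2% to 61.2% of a library's values. cDNA was amplified from 10 pg of RNA. Of the gene columns, 122 are listed singly and 17709 are not, with the same unit.

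Counts were rounded and tested with edgeR 4.0.16 (quasi-likelihood, R 4.3.3, limma 3.58.1) on genotype, after filterByExpr (at least 10 reads in enough libraries and 15 in total) and TMM, with Benjamini-Hochberg adjustment over 13623 genes and a threshold of 0.05. Standard errors come from the F statistic. For a single value, an exact permutation test of 3 against 3 libraries cannot go below 0.1, so none was used. Transcript length and GC content are those of the principal annotated transcript, known for 99% of tested genes, with symbols matched directly for 17400 genes, through synonyms for 190 and not for 241. The correction fitted splines with 5 degrees of freedom each over 8961 genes and used them as an offset. Near-identical copies matched at 95% identity or more over 50% or more of a transcript (BLAST+ 2.17.0). Tested on simulated data, edgeR recovered 130 of 200 changed genes and called 4 of the unchanged ones (13242 genes). The simulated libraries were independent and had the same spread in both groups. In the real libraries the spread differed between groups, so these counts do not give the error rate here. DESeq2 1.42.0, other scalings and filters, a replicate block, libraries of a code summed and each library left out were alternatives.

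The members and lists were chosen with earlier results of these data known. All members are named, as are other pathway genes past the threshold, the most abundant one of each group, Amd2, Arg2, Gamt, Oaz3 and Azin2, and the defining markers. Other genes were named after their values were seen. The values of 1 other pathway gene are not reported here, though it is in the counts.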

Additional observations from a re-analysis of the deposited data

How the results depend on the processing

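Each of Gatm, Amd1, Oaz1 and Azin1 was called in some fits and not in others. Over the 6 fits that left out a library, the members called ranged from 0 to 6, the other pathway genes from 0 to 8 and all genes from 16 to 2606, with 0 members, and 16 or 17 genes in all, whenever a SIRPα KO library was left out (5 or 6 members then had an unadjusted p under 0.05). With libraries of a code summed, which leaves 2 against 2, edgeR called 0 members (4 at an unadjusted p under 0.05), 0 other pathway genes (11) and 10 genes in all (3359). DESeq2 called 6 members (Odc1 and Sms beside the 4), 11 other pathway genes and 3214 genes. The correction based on the longest transcript, chosen after seeing the data, called 7 other pathway genes. Sums and left-out libraries change the number of samples, and the cause of the other shifts was not tested.

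Signs turned for Sms with the correction (-0.11, and -0.0087 with the longest transcript), Oaz2 with the longest transcript (0.053), Slc7a1 with upper quartile scaling (-0.045), with the correction (-0.36, and -0.33 with the longest transcript) and without WT replicate 1 (-0.044 to 0.12 over libraries left out), and Eif5a with the correction (0.26, and 0.31 with the longest transcript) and without WT replicate 3 (-0.18 to 0.0023). Signs over all fits were read only for the members and the other pathway genes named by the stated rule. Others turned with the correction too, such as Atp13a3 (0.36 to -0.23), Paox (0.03 to -0.26) and Pycrl (-0.03 to 0.43). None of these genes was called in the fit as reported. With upper quartile scaling the median log2 fold change of all genes was -0.13, against -0.025 as reported. No filter on low counts called 3 members and 1151 genes, and Azin1 (adjusted p = 0.06, edgeR) was the member lost.

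Same-numbered libraries had correlations of deviations of -0.14, 0.18 and 0.03, and differently numbered ones had -0.26 to 0.23. With 3 libraries in a group, these values cannot show whether the replicate numbers pair the libraries. With the replicate block, 3 members, 4 other pathway genes and 1118 genes were called.

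Reads were few for Gamt and Oaz3, which were too low to test, and for Arg2 and Azin2, whose log2 fold changes had standard errors of 0.79 and 0.62.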
